A study of Danio rerio with 13 samples.

Results

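The wild-type (WT) skin transcriptome described here comes from 5 libraries, which are all the samples of a series of 13 that the labels give as AB wild type. The fish were male zebrafish (Danio rerio) of the AB strain, 3 months old, and no treatment is named in the labels. The other 8 samples carry 1 or 2 mutant copies of the telomerase gene tert, and none of their values enter this description. RNA was prepared with the Illumina TruSeq RNA v2 kit, which selects polyadenylated RNA and does not record strand, so that a gene and an antisense neighbour cannot be told apart. The libraries are called WT1 to WT5 in the order of their records. The labels do not say how the skin was removed, whether fish were pooled, or whether the 5 samples came from 5 animals. The study gives an n for each genotype and combines the tissues into a whole animal, without tying single skin samples to single fish, so the spread between libraries holds fish, dissection and preparation together. With 1 group there is no contrast, and no test between groups was made. A search for outlying libraries is given near the end.

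Fish skin differs from mammalian skin in that its outer cells are alive. The epidermis is a stack of keratinocytes, from the superficial cells that face the water to the basal cells that sit on the basement membrane, with mucous cells, club cells and ionocytes set among them. Below it lie the collagen-rich dermis, the bony scales, and the black, yellow and silvery pigment cells (melanophores, xanthophores and iridophores) that make the stripes. Body-wall muscle lies directly under the skin.

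Total counts per library ran from 17782298 to 28811050. The 37 genes of the mitochondrial genome took between 25.2% and 45% of them, with the highest share in WT4, and were set aside, which left 9780888 (WT4) to 21311029 (WT5) nuclear counts. A level is given on either of 2 scales. Levels of different genes are compared in TPM (counts divided by gene length and scaled to a total of 1000000 over the nuclear genes of each library), and levels of 1 gene in different libraries in scaled CPM (CPM: counts per 1000000 nuclear counts, after scaling of the libraries with TMM, the trimmed mean of M-values). The 2 scales are not interchangeable between libraries, since the TPM that corresponds to a given scaled CPM was 0.74 times the average in WT5 and 1.13 times in WT1. No pair of libraries differed by as little as sampling noise, for which the mean chi-square per gene would be near 1, since the closest pair (WT3 and WT4) had 69.7. WT5 was farthest from WT3 and WT4, with rank correlations over the expressed genes of 0.737 and 0.731. Its correlations with WT1 (0.826) and WT2 (0.836) were only just below the range among the other 4 libraries, 0.839 to 0.945. By chi-square, WT5 and WT2 (216) were no farther apart than WT1 and WT4 (219) or WT2 and WT4 (223). The pairs of WT5 with WT1, WT3 and WT4 had 384, 457 and 477. This chi-square was taken on counts before TMM scaling and rises with depth. It therefore mixes depth with dissimilarity, and orders the pairs only roughly. By rank correlation WT3 and WT4 were also the closest pair (0.945). Counts of variable genes are given without WT5 for most of the larger lists.

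Expressed genes, taken as those averaging 1 scaled CPM or more, numbered 17242 of 32068 nuclear genes, and 14166 reached 1 CPM in every library. Much of the RNA came from few of them. The 25 genes with the highest mean TPM took 18.5% of all TPM in WT1, 26.1% in WT2, 23.7% in WT3, 24.5% in WT4 and 27.6% in WT5 (mean 24.1% ± 3.49, SD, n = 5). The number of genes needed to reach 50% of TPM was 139 in WT1, 94 in WT2, 122 in WT3, 118 in WT4 and 72 in WT5.

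These 25 genes were a mixture of epidermis, muscle and housekeeping. The highest of all was actc1b, an actin of striated muscle, at a mean of 20156 TPM. The next was icn, which encodes ictacalcin, a calcium-binding S100 protein of fish epidermis, at 17825 ± 8551 TPM (SD, n = 5). The third was ptgdsb.1, a lipocalin-type prostaglandin D synthase gene, at 16796 TPM, followed by the keratin krt5 at 16174 ± 8959 TPM. The keratin krt91 stood ninth, at 10949 ± 5528 TPM. By the gene lists used below, 3 of the 25 were markers of superficial keratinocytes, 6 of skeletal muscle and 4 belonged to the cytosolic ribosome.

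Muscle genes filled much of the remaining upper ranks. The parvalbumins, calcium buffers of fast muscle fibres, were represented 4 times, by pvalb4 (14729 TPM), pvalb2 (8577 TPM), pvalb3 (7923 TPM) and pvalb1 (5463 TPM). Fast-muscle myosin light chains were represented by myl11 (11641 TPM) and myl1 (6018 TPM). Both cytoplasmic actins were among the 25, actb2 at 6418 TPM and actb1 at 6364 TPM, with tmsb4x, which encodes the actin-sequestering thymosin beta 4, at 9326 TPM. The list also held cfd, which encodes complement factor D, at 5534 TPM, the mitochondrial ADP/ATP carrier slc25a5 at 5909 TPM, and nme2b.2, a nucleoside diphosphate kinase gene, at 11822 TPM. The gene listed as si:dkey-238c7.12 reached 14045 TPM, si:dkey-151g10.6 reached 9345 TPM, and ENSDARG00000098458, which has no symbol in the name table, reached 6060 TPM.

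A high rank did not by itself make a gene steady. In scaled CPM, actc1b stood at 6465 in WT1, 24015 in WT2, 8205 in WT3, 1344 in WT4 and 43096 in WT5, a 32.1-fold range. The keratinocyte gene icn ran the other way at the extremes, with 4583, 3504, 4599, 5651 and 1331 CPM in WT1 to WT5. WT5 thus had the most of the muscle actin and the least icn, and WT4 the reverse. The gene ptgdsb.1 was high in WT3 (12345 CPM) and WT4 (24971 CPM) and between 2230 and 3551 CPM in the other 3 libraries. The same 2 libraries were the highest for actb1 (11656 and 17808 CPM, against 2546 to 3901), tmsb4x (4579 and 6837 CPM, against 1808 to 2114) and cfd (4213 and 6257 CPM, against 387 to 1253). By contrast, the ribosomal protein gene rps20 stayed between 1556 and 2017 CPM and the translation elongation factor gene eef1a1l1 between 8889 and 11636 CPM.

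**Figure D1:**
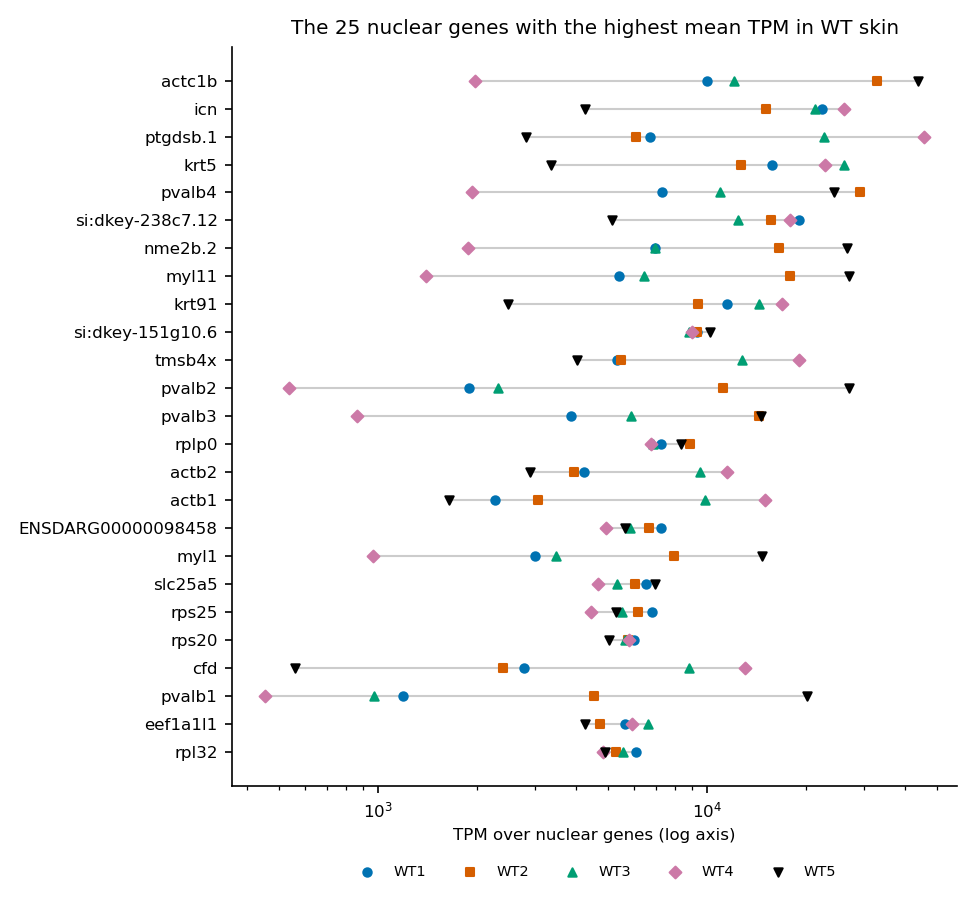
The 25 nuclear genes with the highest mean TPM, 1 row a gene, 1 point a WT library, on a log axis, with a grey line from the lowest to the highest library. The muscle genes spread over more than a factor of 10, with WT4 lowest, whereas rps20, rpl32 and eef1a1l1 form tight groups.

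The spread of a gene was described by its fold range, the scaled CPM of the highest library over that of the lowest, with the lowest set to at least 3 counts. It was computed for the 9512 genes with a mean of at least 10 CPM, which are 55.2% of the expressed genes. The median fold range was 2.2, and the middle 50% of genes lay between 1.63 and 4.30. A gene was called variable when its fold range was at least 4, which 2540 genes were (26.7%), and steady when it was at most 1.5, which 1586 genes were (16.7%). The thresholds cut through a continuum, since the genes nearest to the first lay at 3.998 and 4.001 and those nearest to the second both at 1.5 when rounded. WT5 was the highest library for 36% of the variable genes and the lowest for 38.5%, beside 29.7% and 32.9% over all genes tested. WT4 was the highest for 24.8% and the lowest for 36.6% of the variable genes, beside 33.3% and 23% over all. Of the variable genes, WT2 was highest for 7.48% and lowest for 3.94%, beside 7.77% and 14.6% over all. Without WT5, 1468 of 9513 genes were variable (15.4%) and 2922 steady (30.7%), and without WT1 and WT5 the numbers were 859 (9.24%) and 4150 (44.6%) of 9298.

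Cell types were assessed with 24 lists of marker genes, each summed in TPM. Beside each list the share of its members that were variable can be read against 26.7% over all genes tested. For counts without WT5 the share over all genes is 15.4%, and for counts without WT1 and WT5 it is 9.24%. In bulk RNA, a lower sum can mean fewer cells of a type or less RNA per cell, which cannot be told apart.

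The markers of superficial keratinocytes had the largest median sum of the 24 lists. They reached 66081 TPM in WT1, 43375 in WT2, 73293 in WT3, 72707 in WT4 and 13378 in WT5. WT5 was the lowest by a wide margin, and the highest library held 5.48 times its sum. Of 28 matched genes, 25 averaged 1 CPM or more. The keratins krt5 (6376 CPM in WT5, 17813 to 34221 CPM in the others) and krt91 (3338 CPM, against 9369 to 15777 CPM) carried most of it, together with icn. Of the 21 genes tested, 16 were variable, and most of these had another order than the abundant genes, since 11 of the 16 were highest in WT1, 8 were lowest in WT4 and 8 in WT5. The defining marker krt4 was 1 of those highest in WT1, with 5885 CPM there and 899 to 1793 CPM elsewhere. The keratin krt17 was moderate (148 to 527 CPM), while cyt1, a type I keratin gene, was close to absent, with 0.471 to 1.04 CPM. The median fold range of the 21 was 5.37, and without WT5, 12 of 22 were variable.

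Basal keratinocyte genes followed another order. Their sum was 794 TPM in WT1, 777 in WT2, 4258 in WT3, 5201 in WT4 and 486 in WT5. WT3 and WT4 stood well above the other 3 libraries. The list is led by cldni, a claudin gene (243, 254, 1406, 1897 and 171 CPM in WT1 to WT5), and by the hemidesmosome integrins. The integrin itgb4 was at 228, 393, 3347, 2871 and 355 CPM, and its partner itga6b at 205, 324, 2033, 2383 and 385 CPM. The transcription factor gene tp63, which maintains epidermal stem cells, was at 646 CPM in WT3 and 846 CPM in WT4 and at 131 to 209 CPM in the others. The hemidesmosome collagen col17a1b showed the same division (292 and 285 CPM, against 44.6 to 101 CPM). Its relative col17a1a did not, with 14.8, 0.587, 6.95, 38.7 and 0.235 CPM in WT1 to WT5, so that WT1 exceeded WT3. Of 17 genes tested, 15 were variable, 10 of them highest in WT4, 3 in WT3, 1 in WT1 and 1 in WT5. This did not depend on WT5: without it 14 of 16 were variable, and without WT1 and WT5 also 14 of 16.

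The adhesion genes of desmosomes and epithelial junctions were lowest in WT5 as well. Their sums were 4856, 3091, 5105, 5483 and 1005 TPM in WT1 to WT5. The epithelial cadherin cdh1 was at 346, 412, 670, 1040 and 117 CPM, and epcam, an epithelial adhesion molecule gene, at 336 to 471 CPM in WT1 to WT4 and 123 CPM in WT5. Desmoplakin is listed as 2 genes under the symbol dsp, at 306 to 1139 CPM (ENSDARG00000022309) and 63.8 to 515 CPM (ENSDARG00000076673). Of 24 genes tested, 14 were variable, and 12 of those 14 were lowest in WT5. Without WT5 only 2 of 25 remained past the threshold, a share of 8% against 15.4% over all genes.

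Specialised cells of the epidermis gave weaker signals. Mucous and club cell markers summed to 102 (WT5) to 273 TPM (WT3). The gel-forming mucin muc5.2 was at 182, 105, 257, 55.5 and 99.8 CPM in WT1 to WT5, and agr2, which encodes a disulfide isomerase needed for mucin folding, at 24.4 to 67.3 CPM. Ionocyte markers summed to 236 to 488 TPM, most of it from subunits of the sodium pump, which other cells also use: atp1b1 alone had a mean of 218 TPM. The transcription factor genes that specify ionocytes, foxi3a, foxi3b and gcm2, were at or below 0.589 CPM in every library, and only 2 of 7 defining ionocyte markers reached a mean of 1 CPM. A count of 3 corresponds to between 0.151 and 0.291 scaled CPM in these libraries, so such values rest on a handful of reads. Among the 7, 1 of 3 genes under the symbol rhcg, ammonia transporters (ENSDARG00000007080), was clearly present, with 60.6, 27.2, 39.9, 2.81 and 4.12 CPM. Merkel and hair cell markers were scarce: of the defining markers, atoh1 did not exceed 0.471 CPM and s100t lay between 9.53 and 25.4 CPM.

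Of the pigment cells, iridophores had the narrowest range of sums in TPM, with 344, 365, 340, 379 and 352 in WT1 to WT5. This rested on the scale and on members that moved in different directions. After TPM was brought onto the TMM scale, a step added after seeing the data, the sums were 305, 366, 318, 355 and 477, and of 10 genes tested 1 was variable and none was steady (median fold range 2.54, beside 2.2 over all genes). Much of that sum is purine synthesis (adsl, 124 TPM; atic, 50 TPM; paics, 34.6 TPM), which supplies the guanine crystals of iridophores but runs in other cells too. The more specific pnp4a, a purine nucleoside phosphorylase gene, lay between 10.5 and 27.5 CPM, and the receptor gene ltk between 2.23 and 5 CPM. Xanthophore markers summed to 264 to 568 TPM. The largest part came from 1 member, akr1b1, with a mean of 274 TPM beside 418 TPM for the whole list. The defining genes were much lower, with means of 20.3 TPM for gch2, 4.23 for xdh, 2.72 for aox5 and 2.38 for csf1ra. The pteridine synthesis gene gch2 was at 12.2 to 36.3 CPM. The defining gene xdh, which encodes xanthine dehydrogenase, was at 65 CPM in WT5, the library that also had the most liver-type transcripts. Its next highest library was WT1, and WT2 to WT4 had 1.36 to 3.78 CPM. Melanophore markers were the lowest of the 3, at 27 to 72.8 TPM. The melanosome gene pmela was at 9.8 to 37.5 CPM and tyrp1 (ENSDARG00000056151) at 6.89 to 42.7 CPM, whereas tyr, which encodes tyrosinase, did not exceed 1.35 CPM and dct not 0.352 CPM.

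The dermis was well represented. Fibroblast and matrix genes summed to 18846 TPM in WT1, 7333 in WT2, 8734 in WT3, 4710 in WT4 and 10129 in WT5, with WT1 highest and WT4 lowest. Type I collagen dominated. The gene listed as col1a1 (ENSDARG00000035809) had 14553 CPM in WT1, 5812 in WT2, 7343 in WT3, 2858 in WT4 and 7213 in WT5. The genes col1a1a (1987 to 12907 CPM) and col1a2 (2021 to 11385 CPM) were likewise lowest in WT4. The proteoglycan genes dcn (63.6 to 237 CPM) and lum (64 to 319 CPM) and the fibroblast receptor gene pdgfra (9.9 to 50.6 CPM) were lowest there too. Of 35 genes tested, 21 were variable, and 16 of the 21 were lowest in WT4. Those 21 were divided in their highest library, with 12 in WT5 and 8 in WT1. Without WT5, 17 of 34 were variable, and without WT1 and WT5, 6 of 33.

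Scale bone cells had their highest sum in WT1 (7893 TPM), followed by WT3 (5257 TPM), with 1604 to 2222 TPM in WT2, WT4 and WT5. Most of it came from a type X collagen gene, col10a1 (ENSDARG00000101535), which had 6653, 2202, 4787, 1292 and 1979 CPM in WT1 to WT5. Its mean of 2987 TPM was above the mean of any type I collagen gene. It exceeded these genes in WT1 to WT4. In WT5 it had 1236 TPM, below col1a1 (1677), col1a1a (2796) and col1a2 (1786). The osteoblast transcription factor gene sp7 was detected in every library, at 30.3, 11, 23.7, 9.51 and 14.8 CPM. The osteoclast protease gene ctsk had its high libraries elsewhere, with 212 CPM in WT4 and 197 CPM in WT3 and 51.8 CPM in WT5. Another osteoclast gene, acp5 (ENSDARG00000019763), was low and highest in WT1, with 6.89, 1.96, 2.83, 3.78 and 2.47 CPM in WT1 to WT5. All 7 defining markers averaged 1 CPM or more, and 9 of 15 genes tested were variable (7 of 15 without WT5).

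Skeletal muscle markers had the second largest median sum of the 24 lists, and every one tested was variable. They summed to 38905 TPM in WT1, 141469 in WT2, 51957 in WT3, 10798 in WT4 and 193626 in WT5. The listed markers took from 1.08% (WT4) to 19.4% (WT5) of nuclear TPM. The list does not hold actc1b, and with it the shares were 1.28% and 23.7%. The creatine kinase genes ckma (1604, 7607, 2619, 515 and 8794 CPM) and ckmb (1877, 8324, 3199, 681 and 11339 CPM) followed this order exactly. All 36 genes tested were variable, with a median fold range of 20.46. WT4 was the lowest library for 35 of the 36 and WT5 the highest for 31. Without WT5 all 36 remained variable, with a median fold range of 12.72.

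Liver-type secreted proteins had the widest range of all lists. These genes encode apolipoproteins, clotting factors, complement proteins and other plasma proteins that liver makes. Their sum was 16814 TPM in WT1, 4206 in WT2, 1571 in WT3, 2286 in WT4 and 70306 in WT5, a ratio of 44.7. The apolipoprotein gene apoa1b was at 1799, 578, 67.5, 203 and 18223 CPM in WT1 to WT5. The liver fatty acid binding protein gene fabp10a followed the same order of libraries, with 1582, 345, 12.9, 58.4 and 4048 CPM. The transferrin gene tfa was at 1528, 437, 44.7, 94.8 and 18592 CPM, and the fibrinogen gene fgg at 189, 46.7, 4.18, 20.2 and 1961 CPM. Of 34 genes tested 33 were variable, with a median fold range of 396.28. WT5 was the highest and WT3 the lowest library for all 33 of them. Without WT5, 26 of 27 were variable, with a median fold range of 56.82, and without WT1 and WT5, 16 of 17. The only exception, named after its values were seen, was the retinol-binding protein gene rbp4, which lay between 657 and 2200 CPM. WT5, the library with the most liver-type and muscle RNA, was also the one with the least keratinocyte, junction, cholesterol synthesis and interferon RNA in the lists described here, and the part of the 1 in the other was not tested.

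Digestive genes had their highest sum in WT2 and, like the liver-type genes, their lowest in WT3. The sum was 353, 394, 39.8, 175 and 257 TPM in WT1 to WT5. The trypsin genes prss1 (37.4, 52.7, 0.412, 20.7 and 19.4 CPM) and prss59.2 (25.5, 29.2, 0.53, 11.3 and 12.7 CPM) were nearly missing from WT3 alone. Of 7 genes tested 6 were variable, all of them lowest in WT3 and 5 highest in WT2. The other variable gene was fabp2, which encodes the intestinal fatty acid binding protein and had 8.85, 3, 1, 1.65 and 120 CPM, in the order of the liver-type genes. Germ-line and yolk markers were low, and 9 of 20 averaged 1 CPM or more. The most abundant was sycp1, a gene of the meiotic synaptonemal complex, at 10.4 to 14.1 CPM, and the egg coat gene zp3b was at 2 to 5.3 CPM. The yolk precursor gene vtg1 did not exceed 0.118 CPM, vtg2 had no count in any library, and the germ-cell genes ddx4, piwil1 and dazl did not exceed 2.71 CPM.

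Smooth muscle markers did not follow 1 order. The smooth muscle actin gene acta2 was at 15.1, 21.1, 16.7 and 14.9 CPM in WT1 to WT4 and at 4142 CPM in WT5. Of 2 genes under the symbol tagln, the actin-binding protein transgelin, 1 (ENSDARG00000045408) followed it, with 16.9 to 22.5 CPM in WT1 to WT4 and 624 CPM in WT5. The calponin gene cnn1 (ENSDARG00000017193) was all but confined to WT5. It had no count in WT1 and WT2, 1 in WT3, 1 in WT4 and 2192 counts (129 CPM) in WT5. Another gene under that symbol (ENSDARG00000102398) had 12 counts in WT1 and 16 in WT5 and did not exceed 0.941 CPM. The myosin gene myh11 (ENSDARG00000009782) was at 21.8, 30, 19.8, 10.6 and 66.2 CPM in WT1 to WT5. A further myh11 gene (ENSDARG00000100972) was lowest in WT5, at 1.06 CPM, and did not exceed 1.77 CPM. The other tagln gene (ENSDARG00000033466) was highest in WT4 (1085 CPM) and lowest in WT5 (219 CPM), and WT3 (765 CPM) came next, as for the basal keratinocyte genes. The pericyte receptor gene pdgfrb lay between 2.23 and 6.69 CPM. Of 8 genes tested 7 were variable, and without WT5, 1 of 7 was.

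Vessel endothelium was present at low levels, with 285, 169, 122, 81.3 and 262 TPM in WT1 to WT5. The endothelial receptor gene kdrl was at 38.1, 38.2, 20.8, 11.4 and 82 CPM, and the endothelial cadherin gene cdh5 at 42.1, 34.7, 19.5, 8.83 and 72.3 CPM. Both had WT5 highest and WT4 lowest, as did all but 2 of the 9 variable genes among 12 tested. Without WT5, 4 of 10 were variable. Of the genes used as lymphatic markers, lyve1b did not exceed 1.41 CPM, while the transcription factor gene prox1 (ENSDARG00000055158) was at 37.7 CPM in WT5 and at 3.49 to 7.49 CPM in the others.

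Red cells marked a single library. Their genes summed to 988 TPM in WT1, 15106 in WT2, 984 in WT3, 480 in WT4 and 1835 in WT5. The alpha globin gene hbaa1 was at 1941 CPM in WT2 and at 42.7 to 338 CPM elsewhere, and alas2, the erythroid enzyme of haem synthesis, at 749 CPM against 9.12 to 78.4 CPM. All 11 genes tested were variable, and WT2 was the highest library for all 11. Without WT5, 10 of 11 were variable. The globins are counted over near-identical copies (7 genes carry the symbol hbe1), so the division between copies is uncertain.

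Most defining markers of immune cells were at low levels, but cd74a was not. The leukocyte phosphatase gene ptprc was at 10.7 to 51.5 CPM and the leukocyte plastin gene lcp1 at 7.37 to 12.1 CPM, a narrow range. Both were highest in WT5, as was the defining macrophage marker c1qa (8.53 CPM, against 2.52 to 7.49 CPM elsewhere). The macrophage perforin gene mpeg1 (ENSDARG00000043093) was at 106, 63.5, 58.6, 53.1 and 8.18 CPM in WT1 to WT5. The most abundant defining marker of this list was cd74a, the invariant chain of MHC class II, with 1710, 631, 688, 250 and 282 CPM. A further invariant chain gene, cd74b, had 1229, 540, 573, 259 and 169 CPM. The macrophage list reached 8055 TPM in WT1 and 9903 TPM in WT5, but its most abundant member was apoc1, an apolipoprotein gene that liver also expresses, with 1193, 272, 11.2, 43.6 and 5525 CPM, in the order of the liver-type genes. Neutrophil markers summed to 35.9 to 132 TPM, with lyz (lysozyme) at 3.59 to 34.5 CPM. T cell markers were detected in every library, with lck at 2.53 to 5.08 CPM, zap70 at 2.72 to 5.22 CPM and cd4-1 at 1.36 to 6.59 CPM. B cells were near the floor: none of the 4 defining markers reached a mean of 1 CPM, and pax5 did not exceed 0.101 CPM.

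Nerve and Schwann cell genes summed to 221 to 552 TPM. The myelin genes mpz (72.4, 132, 33.5, 16.3 and 214 CPM in WT1 to WT5) and mbpa (109, 288, 60, 91.1 and 363 CPM) were highest in WT5 and WT2, the libraries with the most muscle. Not all members shared this order. The receptor gene erbb3b was highest in WT1 and lowest in WT5 (48, 38.2, 22, 20 and 10.8 CPM). The myelin gene mbpb was at 106, 126, 126, 182 and 212 CPM. Of 10 genes tested 8 were variable, 6 of them highest in WT5 and 2 in WT1. Without WT5, 2 of 8 were variable. The neuronal gene elavl3 did not exceed 6 CPM. Adipocyte markers summed to 471 to 1271 TPM. Most of it came from fabp4a, a fatty acid binding protein gene that vessels also use (114 to 435 CPM), lpl (ENSDARG00000087697), which encodes lipoprotein lipase (68.1 to 228 CPM), and g0s2, the gene of a lipase inhibitor (19.1 to 95.3 CPM). All 3 were highest in WT5. The gene plin1, whose product coats fat droplets, had 1 count in WT2 and none elsewhere. The defining marker cidec was low but detected in every library, with 4.52, 1.76, 1.82, 0.97 and 7.41 CPM in WT1 to WT5.

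**Figure D2:**
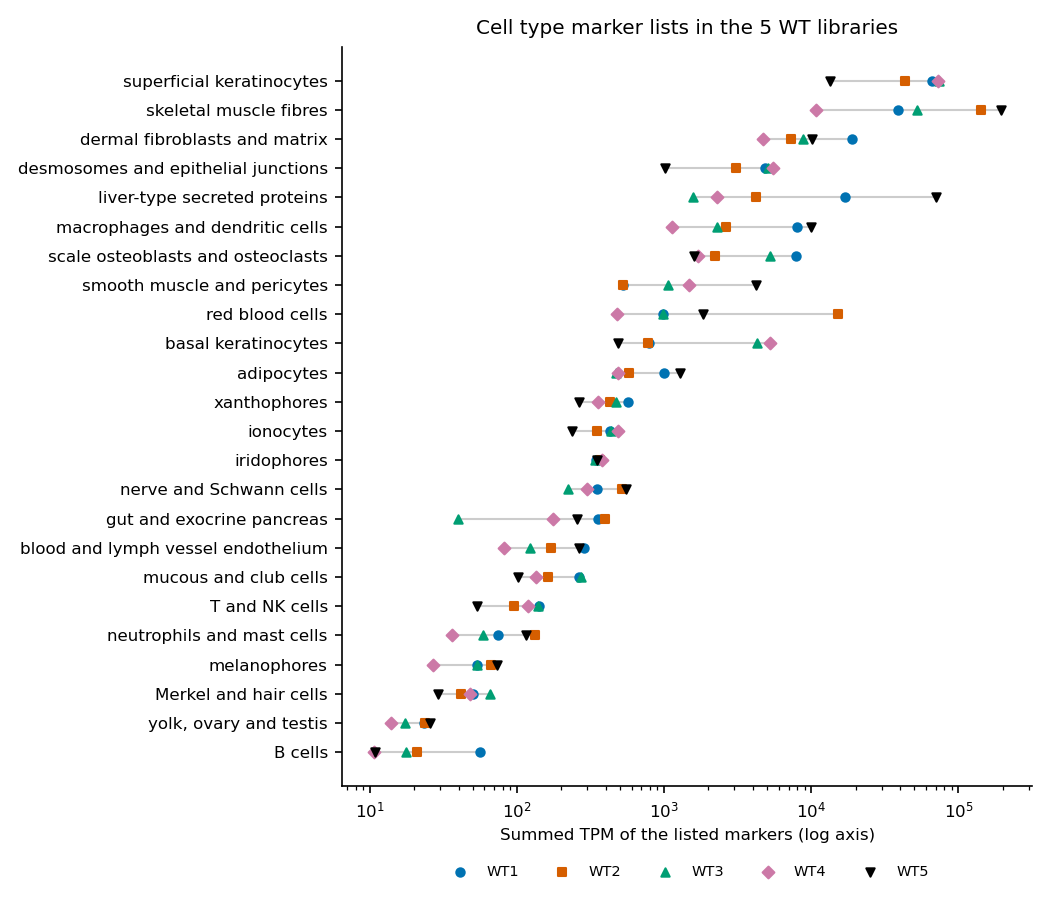
Summed TPM of the 24 cell type lists, 1 row a list, 1 point a WT library, on a log axis, ordered by the median library. Superficial keratinocytes lead with WT5 far to the left at 13378 TPM, and liver-type genes run from 1571 to 70306 TPM.

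Several programmes that are not cell types were examined in the same way. The interferon response was the most divided of them. Its genes summed to 2431 TPM in WT1, 3654 in WT2, 5229 in WT3, 7044 in WT4 and 469 in WT5. The transcription factor gene irf7 was at 44.7, 383, 497 and 719 CPM in WT1 to WT4 and lowest in WT5, and isg15, a ubiquitin-like modifier gene, was at 13.2, 244, 206, 366 and 5.88 CPM. Both were low in WT1 as well as in WT5. Of 26 genes tested, 25 were variable (median fold range 23.32), with 18 highest in WT4 and 7 in WT3 and 24 lowest in WT5. Without WT5, 18 of 26 were variable, and without WT1 and WT5 only 1 of 26 was, with a median fold range of 1.75 beside 1.57 over all genes. In WT2, WT3 and WT4 the share of variable genes was below that over all genes (3.85% against 9.24%). The share of steady genes was below it too (26.9% against 44.6%). WT1 and WT5 had the lowest sums of this list, so leaving them out narrows its range in part by that choice.

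**Figure D3:**
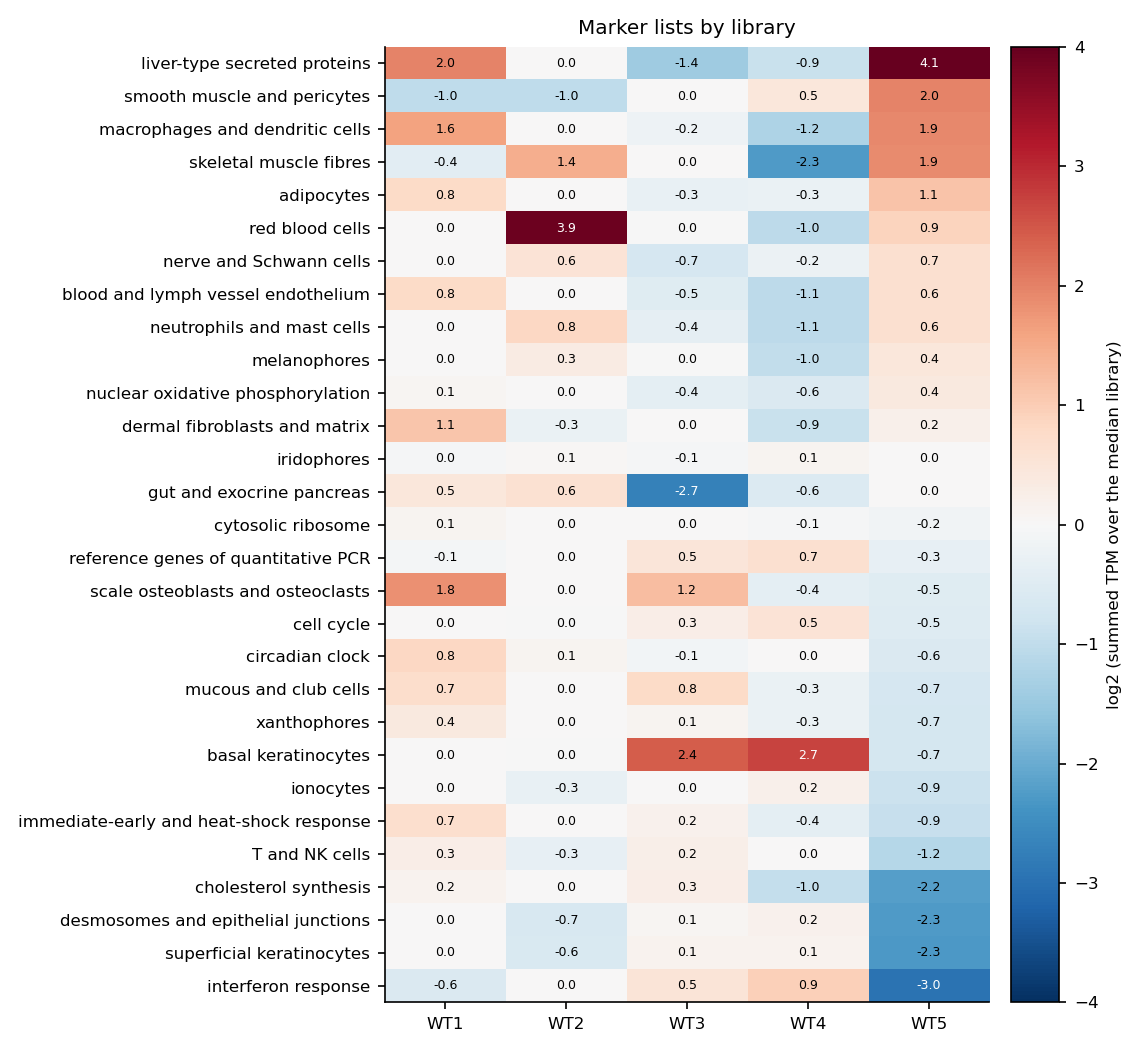
The log2 ratio of each list's summed TPM to its median library, for the 29 lists with at least 3 genes tested, ordered by WT5 (red above and blue below the median). The liver-type list is at 4.1 in WT5 and 2.0 in WT1, red blood cells at 3.9 in WT2, basal keratinocytes at 2.4 in WT3 and 2.7 in WT4, and the interferon list at -3.0 in WT5.

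Cholesterol synthesis genes were lowest in WT5 and next lowest in WT4, with sums of 5778, 5185, 6200, 2660 and 1116 TPM in WT1 to WT5. The methylsterol oxidase gene msmo1 was at 798, 1009, 1016, 438 and 191 CPM, and hmgcs1, an early enzyme of the pathway, at 1065, 1461, 1987, 864 and 486 CPM. Of 25 genes tested 13 were variable, and all 13 were lowest in WT5. Without WT5, 1 of 25 was variable.

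Clock genes and stress genes both had their highest sums in WT1 (1396 and 10676 TPM). The clock repressor gene nr1d2a was at 465 CPM in WT1, 209 in WT4 and 58.5 to 97.4 CPM in the other 3. The clock-output transcription factor gene tefa was at 210, 162, 150, 124 and 33.5 CPM. Of 27 clock genes tested 11 were variable (40.7%, against 26.7% over all genes). Of the 11, 7 were highest in WT1, which was the highest library for 22.1% of all variable genes. Without WT5, 5 of 27 were variable (18.5%), near the 15.4% over all genes. The photolyase-like gene cry3a stayed within 368 to 586 CPM. The labels give no time of day for the samples. Among immediate-early and heat-shock genes 15 of 32 were variable (46.9%), and 13 of 32 without WT5 (40.6%). Of the 15, more were highest in WT2 (7) than in WT1 (5), although WT1 had the highest sum. Over all variable genes these libraries were highest for 7.48% and 22.1%. The shear-responsive transcription factor gene klf2a was at 3953 CPM in WT1, 1208 in WT2, 1464 in WT3, 630 in WT4 and 274 in WT5, and gadd45b (ENSDARG00000027744), a stress-induced growth regulator, at 1567, 873, 1088, 208 and 585 CPM. The constitutive chaperone gene hspa8 ranged only from 1802 to 2724 CPM.

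Cell cycle genes had a median fold range of 2.22, beside 2.2 over all genes, but few lay past either threshold. Of 15 tested 1 was variable and 1 steady (6.67%, against 26.7% and 16.7% over all genes), and without WT5 the median stayed at 2.22 beside 1.77. The replication clamp gene pcna ran from 68.2 to 151 CPM, highest in WT4. The proliferation markers mki67 (9.35 to 19 CPM) and top2a (5.78 to 13.6 CPM) were present in every library. Among nuclear genes of oxidative phosphorylation 9 of 89 were variable (10.1%, against 26.7% over all genes). Of the 9, 8 were highest in WT5 and 8 lowest in WT4. The median fold range of these nuclear genes was 2.92, above the 2.2 over all genes. Without WT5, 6 of 89 were variable and the median was 1.67, beside 1.77 over all genes. The ATP synthase gene atp5f1b was at 1205, 1559, 1183, 1064 and 2467 CPM, in step with muscle at the extremes.

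The cytosolic ribosome had the largest share of steady genes among lists with over 1 gene tested. Its 86 genes took 213546 TPM in WT1, 198893 in WT2, 197342 in WT3, 189705 in WT4 and 177507 in WT5, so that 17.8% to 21.4% of nuclear TPM came from ribosomal protein genes. The order depends on the scale: WT5 had the lowest sum in TPM, but it was the highest library in scaled CPM for 81 of the 86 genes. Of 84 tested, 61 were steady and none was variable (median fold range 1.38), against 16.7% steady over all genes. WT5 accounted for most of the rest: without it 82 of 84 were steady, with a median fold range of 1.15. The gene rplp0, a component of the ribosomal stalk, was at 4271, 5916, 4266, 4207 and 7522 CPM in WT1 to WT5, and rps25 at 2109, 2161, 1806, 1456 and 2505 CPM. Steadiness is read here on a scale that takes the bulk of genes not to differ between libraries.

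**Figure D4:**
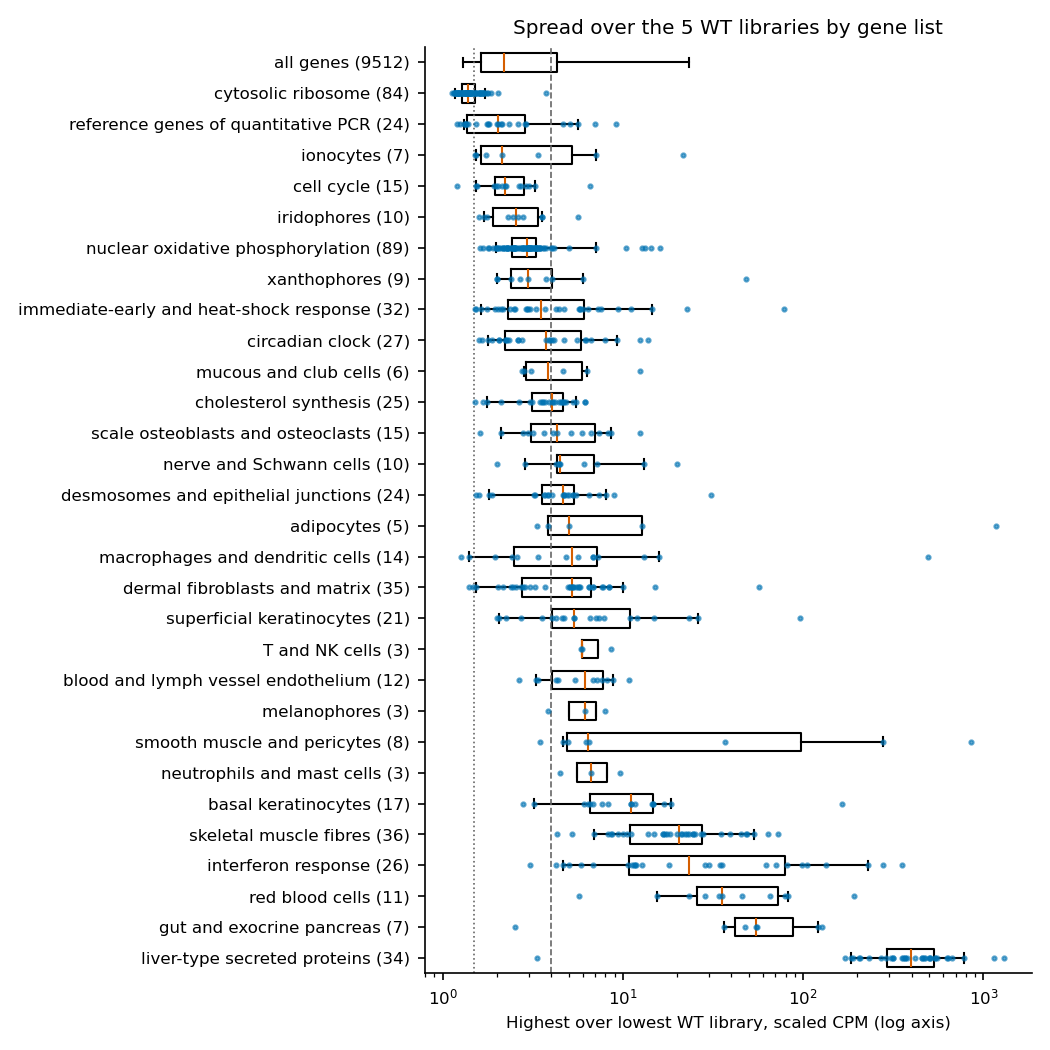
Fold range over the 5 WT libraries (log axis) of the genes of each list with at least 10 CPM, with all genes in the first row. Boxes span the middle 50%, whiskers run from the 5th to the 95th percentile, the orange line is the median, points are genes, and the dotted and dashed lines stand at 1.5 and 4. The ribosome lies at a median of 1.38 and liver-type genes at 396.28.

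Of the 15 genes with the largest fold range, 7 were highest in WT5 and lowest in WT3, as the liver-type list was. Among them were apobb.1, an apolipoprotein B gene (154, 63.2, 4, 11.9 and 5228 CPM), ahsg2, a fetuin gene (82.4, 17.3, 0.765, 2.62 and 873 CPM), and pck1, the gluconeogenic enzyme (51.9, 4.57, 0.235, 3.69 and 275 CPM). Antiviral and chemokine genes were another kind, with ifi44a8 (0.201, 23.9, 67, 188 and 0.235 CPM), gig2l (4.32, 48.1, 408, 174 and 0.471 CPM) and ccl19a.2 (13, 220, 215, 683 and 0.824 CPM). WT1 and WT5 were the lowest libraries for all 3 of them, as they were for the interferon list. A further kind was present in some libraries and missing from others. The MHC class II genes mhc2dga (235, 101, 118, 33.1 and 0 CPM) and mhc2dgb (305, 114, 108, 27.4 and 0 CPM) had no count in WT5. There the invariant chain cd74a still had 282 CPM.

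The largest fold range of the 9512 belonged to si:dkeyp-1h4.8, with 9807 counts in WT1, 11955 in WT2, 1 in WT3, 17516 in WT4 and 0 in WT5. Its level was at least 9628-fold lower in WT5 than in WT4, taking 3 counts as the floor of the library. The gene ENSDARG00000007199, which has no symbol in the name table, also had no count in WT5 and 152 to 2434 counts in the others. In all, 51 of the 9512 genes had fewer than 3 counts in at least 1 library. WT3 was such a library for 33 of them, WT4 for 17, WT5 for 11, WT1 for 2 and WT2 for 1. Conversely, 39 genes had at least 90% of their summed CPM in a single library, 35 of them in WT5, 3 in WT1 and 1 in WT4. The exception in WT4, singled out after its values were seen, was the MHC class I gene mhc1uba, with 8732 counts in WT4 and 25 to 357 in the others.

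The 15 steadiest genes had fold ranges of 1.04 to 1.1. The steadiest was taf15, the gene of an RNA-binding TBP-associated factor, with 248, 249, 245, 241 and 240 CPM in WT1 to WT5. It was followed by mfap3l (38 to 40.1 CPM), rragb, a GTPase gene of lysosomal nutrient sensing (25.4 to 26.9 CPM), and snx17, a sorting nexin gene of endosomes (24.9 to 26.4 CPM). The most abundant of the 15 was naca, which encodes the alpha subunit of the nascent polypeptide-associated complex, with 1132 to 1242 CPM. Others served lysosome and vacuole (borcs6 and atp6v1f), splicing (cwc15), chromatin and transcription (kansl2, irf2bp2 and gabpa) and RNA modification (pus7). Depth limits how firmly such genes can be ordered, since borcs6, for example, rests on 164 (WT4) to 301 (WT1) counts per library. The scale limits it as well, since these fold ranges are in scaled CPM. In TPM, taf15 was at 171, 151, 160, 157 and 108 in WT1 to WT5.

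Genes used as references in quantitative PCR were compared for steadiness, since a reference should not follow the cell types. Of 24 tested, 7 were steady (29.2%, against 16.7% of all genes) and 5 variable (20.8%, against 26.7%). The steady ones were rpl13 (1348 to 1620 CPM), tbp, the TATA-box binding protein (13.5 to 16.8 CPM), eef1a1l1 (8889 to 11636 CPM), polr2a (121 to 161 CPM), mob4 (65.8 to 88.3 CPM), rpl13a (1489 to 2011 CPM) and rps18 (1234 to 1702 CPM). The variable ones included 3 of the most used. The cytoplasmic actin gene actb1 was at 2546, 3901, 11656, 17808 and 2824 CPM in WT1 to WT5, a 6.99-fold range in the order of the basal keratinocyte genes at the top. The glycolytic gene gapdh was at 2057, 4616, 2276, 560 and 5108 CPM, a 9.13-fold range with the same highest and lowest library as skeletal muscle. The MHC class I light chain gene b2m was at 1062 to 1464 CPM in WT1 to WT4 and at 315 CPM in WT5. The other variable references were hprt1 (14.7 to 82.8 CPM) and ywhaz (316 to 1616 CPM). Without WT5, 9 of 24 were steady (37.5%, against 30.7% of all genes) and 2 variable (8.33%, against 15.4%). Which references are steady depends on the scale. Of the 7 above, only rpl13a (1065 to 1229 TPM) and rps18 (1480 to 1646 TPM) had a smaller fold range in TPM. By that scale mob4, for example, ran from 77.2 to 158 TPM.

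**Figure D5:**
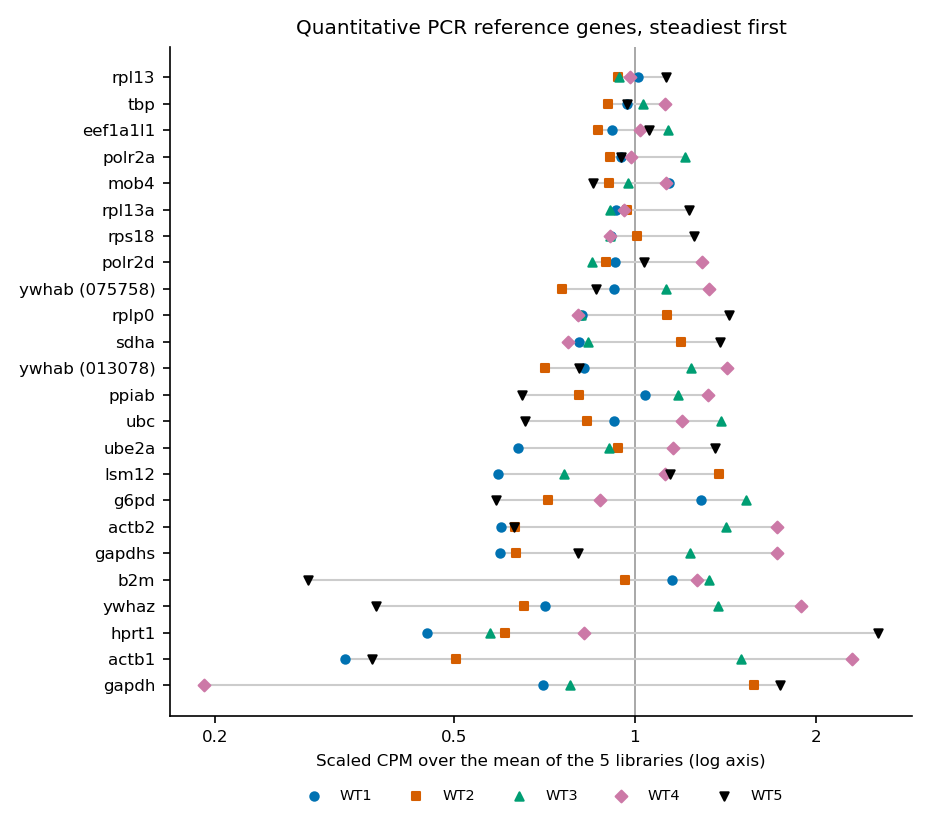
Scaled CPM of the 24 quantitative PCR reference genes tested, divided by the mean of the gene's 5 WT libraries (log axis), steadiest at the top. The first 7 rows have fold ranges of at most 1.5, while b2m in WT5 and gapdh in WT4 lie farthest below 1.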

How the data were processed

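RNA of 5 WT skin samples was analysed, grouped by the strain given in their labels. The authors deposited whole-number read counts per gene for the series. The submitters' processing notes name the read counter featureCounts (1.4.6-p4), the aligner STAR (2.4.1d), bcl2fastq (1.8.4) and the build GRCz10, and their settings are not given in the sources used here. A second deposited table, named RPKM by the authors, was handled as a score. The gene length implied by both tables had a median coefficient of variation of 32.3% over samples under division by the library's own total, and of 0.0026% when the 13 totals were cycled along the rows (3854 genes with over 200 counts). The table served only to recover gene length.

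Symbols were found for 81.8% of 32105 genes. Symbols taken from human genes can be shared by zebrafish copies, between which reads may be split. The mitochondrial genome (37 genes) was left out, since 13 were named and 24 were recognised by length against RefSeq. Libraries were scaled with TMM in edgeR 4.0.16 (R 4.3.3; factors 0.798 to 1.11), and DESeq2 1.42.0 size factors served as an alternative. The code for the fold range was checked on simulated counts. Spread, lists and levels were computed in Python 3.11.15.

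The members, the 32 gene lists (905 genes; 28 symbols were not matched) and the thresholds were chosen with earlier results of these data known. The named genes were the 25 with the highest mean TPM, and the 3 most abundant members and the defining markers of each list. The 15 genes with the largest and the 15 with the smallest fold range were named too, and all reference genes. A symbol chosen as defining lost that mark if it was not matched, or fell on a gene already matched in its list, as among the Merkel cell and adipocyte markers. Alternatives changed the scaling, the filter, the thresholds and the libraries.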

Additional observations from a re-analysis of the deposited data

Results flagged for a closer look

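Each of 32 list sums (TPM) and each named gene with a count (scaled CPM), 284 values in all, was searched on the log2 scale, after adding 0.1, for a library far from the other 4. A value was singled out when its gap to the nearest library exceeded 0.71 of the whole range, which chance alone does for about 1 in 20 groups. That rate does not carry over to genes named for a large or small fold range, which were chosen by their spread. The values also share libraries, so the number singled out was not compared with that rate. The search singled out 21 genes and no list, and the library was WT5 for 11 of them. The gap as a share of the range is given for each.

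WT5 stood high for acta2 (0.939), tagln (ENSDARG00000045408; 0.921) and cnn1 (ENSDARG00000017193; 0.905), which are among the smooth muscle genes described above. WT5 stood low for epcam (0.749), mpeg1 (ENSDARG00000043093; 0.728), b2m (0.791), mhc2dga (0.748), tefa (0.71) and hmgb2 (ENSDARG00000029722; 0.779), which was at 123 CPM there and at 172 to 189 CPM elsewhere. WT5 stood high for si:dkey-151g10.6 (0.759; 3607 CPM against 2157 to 2441 CPM) and rpl13a (0.787; 2011 CPM against 1489 to 1587 CPM).

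WT3 stood low for the digestive genes prss1 (0.785), prss59.2 (0.753) and cel (ENSDARG00000029822; 0.793; 0.177 CPM against 2.33 to 4.18 CPM). WT3 stood high for polr2a (0.724; 161 CPM against 121 to 131 CPM). WT4 stood low for cd4-1 (0.767) and for aox5, a xanthophore gene (0.813; 2.91 CPM against 7.99 to 10.1 CPM), and high for pus7 (0.749; 30.8 CPM against 28.1 to 28.8 CPM). WT1 stood low for trpv6, an ionocyte calcium channel gene (0.733; 2 counts against 7 to 20), and high for blnk, a B cell adaptor gene (0.727; 3.57 CPM against 1.94 to 2.29 CPM). WT2 held the only count of plin1 (the gap is the whole range, a share of 1). No cause was tested for any of these.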

How the results depend on the processing

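The number of expressed genes (17242) stayed within 1.5 times under every alternative, from 14166 to 25673, and the median fold range (2.2) from 1.57 to 2.67. Leaving out 1 library at a time gave 1468 to 2454 variable genes (main 2540), the fewest without WT5, and 1831 to 2922 steady genes (main 1586), with 2566 without WT4. The fewer libraries enter, the smaller a fold range can be. Without WT1 and WT5 there were 859 variable and 4150 steady genes. The minimum level decided the counts too: at a mean of 1 CPM or more there were 5931 variable genes (34.4% of those tested), and at 30 CPM or more 1276 variable (27.6%) and 779 steady genes. An 8-fold threshold gave 1248 variable genes, and steady thresholds of 1.3 and 2 gave 493 and 4134. Counts without gene length lowered the share of the 25 most abundant genes from 24.1% to 19%, with 16 of the 25 in common, and ranking by median TPM, chosen after seeing the data, kept 20 of the 25. Other scalings changed the steady set more than the variable set: with nuclear totals alone, 2362 of the 2540 variable but 726 of the 1586 steady genes were found again. Of the 255 named genes, 15 moved by more than 1 SD without WT5, 5 without WT1, and 64 when the mitochondrial genome entered the library totals. At a fixed scale, leaving out 1 of 5 values cannot shift a mean by 1 SD. The 15 and the 5 therefore reflect the renewed scaling of the remaining libraries. They do not measure how far a level depends on WT5 or WT1. The median fold range of 13 of 29 lists moved by over 1.5 times without WT5, and of 19 without WT1 and WT5. Bringing TPM onto the TMM scale, added after seeing the data, moved the ratio of the highest to the lowest sum by over 1.5 times for smooth muscle (12.11) and for the immediate-early list (1.97), and for no other of the 32 lists. It did change the extreme library of several lists. The endothelium sum was highest in WT1 in TPM (285) but in WT5 on the TMM scale (354, against 253 in WT1). The highest neutrophil sum moved from WT2 to WT5. The lowest library moved from WT5 to WT4 for mucous cells, scale bone cells and xanthophores. For the clock list it moved from WT5 to WT3, and for the cell cycle list from WT5 to WT1. Coding length from RefSeq proteins was not run, since no protein table was used here. No paired analysis was possible because there is 1 group. Depth limits genes near the minimum level most in WT4, which has the fewest nuclear counts (9780888).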

Other observations

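Genes held mostly by a single library were looked through after their values were seen, and are given as values only. Among the 35 genes with at least 90% of their summed scaled CPM in WT5, coch, which encodes the matrix protein cochlin, had 15392 counts there and 12 to 108 in the others, and col8a1, a type VIII collagen gene, had 1698 counts against 7 to 40. The liver-type genes plg (plasminogen; 10967 counts against 14 to 1026) and itih2 (an inter-alpha-trypsin inhibitor gene; 8031 counts against 16 to 523) were of the same group. The 3 genes held by WT1 were tgm1l2, a transglutaminase gene (2913 counts against 27 to 51), cfap70, a cilia-associated gene (1414 counts against 5 to 39), and jac1 (1032 counts against 3 to 11).

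Some genes were on in different subsets of libraries. The gene si:dkey-187j14.8 had 468, 827 and 1374 counts in WT1 to WT3, 2 in WT4 and 0 in WT5, and ENSDARG00000094951 had 0 counts in WT1, 576 in WT2, 986 in WT3, 108 in WT4 and 40 in WT5. The gene si:ch211-233m11.1 had 643, 3, 816, 361 and 2 counts in WT1 to WT5. The stress-induced chaperone gene hspa1b (ENSDARG00000056210) had 348, 255 and 264 counts in WT2, WT3 and WT5, but 14 in WT1 and 1 in WT4.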
